A study of Homo sapiens with 6 samples.

Results

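Long non-coding RNAs (lncRNAs) of the HOXC gene cluster on chromosome 12 and of its flank were compared between a lung cancer line and a normal lung epithelial line. The genes were HOXC-AS3, HOXC-AS2, AC012531.1, FLJ12825 and LINC02381, and every transcript of the authors' table that carried 1 of these symbols was taken. Each gene had 1 transcript, giving 5 of the 1437 transcripts in the table. They were HOXC-AS3-204, HOXC-AS2-202, AC012531.1-201, FLJ12825-201 and LINC02381-201.

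Whole-transcriptome RNA sequencing was done on 3 samples of A549, a lung adenocarcinoma line grown in DMEM, and on 3 samples of HBE, a line labelled as normal lung epithelium and grown in RPMI-1640. The sample labels spell this line HEB, while the culture protocol and the columns of the table write HBE, and the spellings were taken as the same line. Each group is a single line, and line and medium cannot be told apart. Nothing in the labels ties the samples of a line to separate cultures, so the p-values measure how these samples scatter, and that scatter may be technical only. The table gives estimated counts and FPKM, the level per transcript length and library size, which allows levels of different transcripts to be compared. The library sizes recovered from the table were 55443876 to 57664347 in A549 and 49376413 to 56218149 in HBE, so 1 count was worth 0.0173 to 0.0203 CPM, the count scaled to the library size. The authors had chosen the transcripts on these 6 samples, so the tests below are not independent evidence of a difference. Of the cell type markers looked for, the table holds MIR205HG of airway epithelium and SFTA1P of the alveolar and club cell list, and all 5 of their transcripts had no count in A549. Their summed level in HBE was 76.2 to 213 CPM for MIR205HG and 2.40 to 6.64 CPM for SFTA1P. Mesenchymal markers, with 4 transcripts of 3 genes, summed to 1.43 to 1.89 CPM in A549 and 3.97 to 5.16 CPM in HBE. Of these 4 transcripts, 2 were higher and 2 lower in A549. The 2 neural marker transcripts, 1 higher and 1 lower in A549, summed to 3.19 to 4.002 CPM in A549 and 0.836 to 2.65 CPM in HBE. The part of any marker list in the results below was not tested.

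HOX genes encode homeodomain transcription factors that give cells their position along the body axis, and adult cells of many tissues keep a HOX pattern that marks where in the body they came from. The protein-coding genes of the HOXC cluster are read from 1 strand, and lncRNAs are transcribed between and opposite them. HOTAIR, which lies on the opposite strand, overlaps HOXC11 and was not analysed here, is the best known of these. HOXC-AS3 and HOXC-AS2 are antisense to the coding genes. HOXC-AS3 has been described as raised in gastric cancer, where it was reported to bind the protein YBX1, and LINC02381 has been described as a growth-limiting RNA in colorectal cancer.

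The coding genes from HOXC13 to HOXC4 span 117 kb of GRCh38, and the 5 transcripts lie within 151 kb (chr12:53981509-54132843). HOXC-AS3-204 (ENST00000567780, chr12:53981509-53984324) and HOXC-AS2-202 (ENST00000604081, chr12:53993810-53995899) are single-exon transcripts of the minus strand, of 2816 and 2090 bases, which GENCODE release 29 classes as retained introns. AC012531.1-201 (ENST00000562848, chr12:54019910-54022589) is a single exon of 2680 bases on the plus strand, inside introns of HOXC6 and HOXC4. Beyond the cluster, FLJ12825-201 (ENST00000515617, chr12:54058254-54122234) starts 2224 bases after the end of HOXC4. It joins exons of 311 and 3631 bases on the plus strand. LINC02381-201 (ENST00000508564, chr12:54126098-54132843) starts 3864 bases after the end of FLJ12825 and joins exons of 515 and 854 bases on the same strand. Its start lies 106 bases from that of FAM242C, a lncRNA gene of the other strand, and the whole transcript lies in introns of SMUG1, which encodes a uracil-DNA glycosylase of base excision repair.

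**Figure D1:**
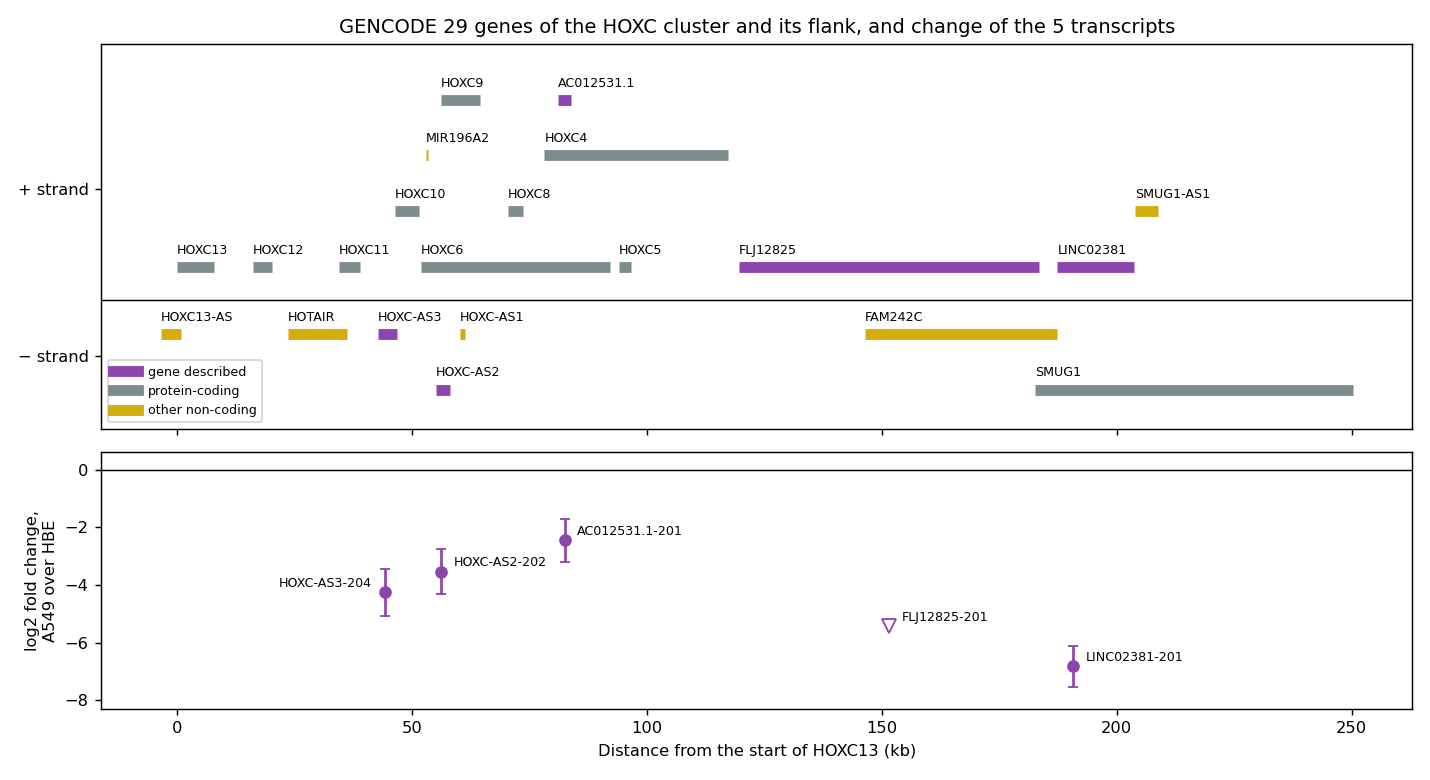
Upper panel: GENCODE release 29 genes by strand, against the distance from the start of HOXC13 in kb, with the 5 lncRNA genes in purple. Lower panel: log2 fold change of A549 over HBE at the middle of each transcript, as points with the standard error or, for FLJ12825-201, as an open triangle at the bound of 43.3-fold lower, with all 5 below 0.

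The bases at the boundaries of each transcript are shown, taken from GRCh38 and written in the direction of the transcript. For the retained-intron transcripts these are the bases where the RNA runs through a splice site of the other isoforms. HOXC-AS2-202 keeps a 314-base intron of HOXC-AS2-201 (chr12:53995519-53995832), whose first bases are in capitals (chr12:53995803-53995862). HOXC-AS3-204 begins 170 bases inside the intron that precedes an exon of HOXC-AS3-202 and HOXC-AS3-203, and the last bases of that intron are in capitals (chr12:53984125-53984184).
HOXC-AS2-202: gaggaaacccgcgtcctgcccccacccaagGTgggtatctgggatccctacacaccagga
HOXC-AS3-204: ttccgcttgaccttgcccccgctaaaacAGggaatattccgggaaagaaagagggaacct

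For the flanking transcripts the boundary is the exon junction, with the bases of the second exon in capitals. AC012531.1-201 has no junction, so its first 90 bases are shown (chr12:54019910-54019999). They lie in introns of HOXC6 and HOXC4 on the same strand, so they do not set it apart from unspliced RNA of those genes.
FLJ12825-201: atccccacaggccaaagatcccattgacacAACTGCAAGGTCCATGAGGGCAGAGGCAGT
LINC02381-201: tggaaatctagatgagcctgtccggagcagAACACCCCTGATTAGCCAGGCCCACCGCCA
AC012531.1-201: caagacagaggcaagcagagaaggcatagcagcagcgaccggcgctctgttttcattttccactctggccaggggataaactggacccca

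Exons of other genes lie opposite a small part of 2 of the transcripts. HOXC-AS2-202 has 163 bases (7.80%) opposite an exon of HOXC9 and 73 bases (3.49%) opposite one of HOXC6. FLJ12825-201 has 180 bases (4.57%) opposite an exon of FAM242C and 179 bases (4.54%) opposite one of SMUG1. Gene spans on the opposite strand, introns included, reach further. They cover 100% of HOXC-AS2-202 (HOXC6 and AC012531.2), 92.1% of FLJ12825-201 (FAM242C) and 100% of LINC02381-201 (SMUG1). The sources used here do not state whether counting was stranded. Reads of the exon stretches, and reads of unspliced RNA from these genes, therefore cannot be assigned to a strand. Transcripts of other genes at 97% identity or more covered 0% of HOXC-AS3-204, AC012531.1-201 and LINC02381-201. Such copies on the same strand covered 1.45% of FLJ12825-201, from ATRNL1, and 0% of HOXC-AS2-202. On the opposite strand they covered 4.69% of FLJ12825-201, from FAM242A, FAM242C, FAM242D, FAM242E and SMUG1, and 5.89% of HOXC-AS2-202, from HOXC6 and HOXC9. Reads of unspliced HOXC6 or HOXC4 RNA cannot be told apart from AC012531.1-201 by position, since all of its bases lie in their introns on the same strand. The same holds for AC012531.2 and for a HOXC5 gene classed as processed transcript, whose spans also cover 100% of it on that strand.

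All 5 transcripts were lower in A549. By edgeR's quasi-likelihood test over the whole table, with Benjamini-Hochberg adjustment at 0.05, 5 of 5 passed, in a table where 99.9% of transcripts passed and 52.3% passed as lower in A549. For 5 of 5, every A549 sample was below every HBE sample, which was so for 51.8% of the table. The median log2 fold change of the 5 was -4.26, the same with FLJ12825-201 at its bound, against -2.00 for the table and -6.39 for the transcripts that passed as lower. The samples are bulk RNA, so RNA in fewer cells and less RNA in each cell cannot be told apart.

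**Figure D2:**
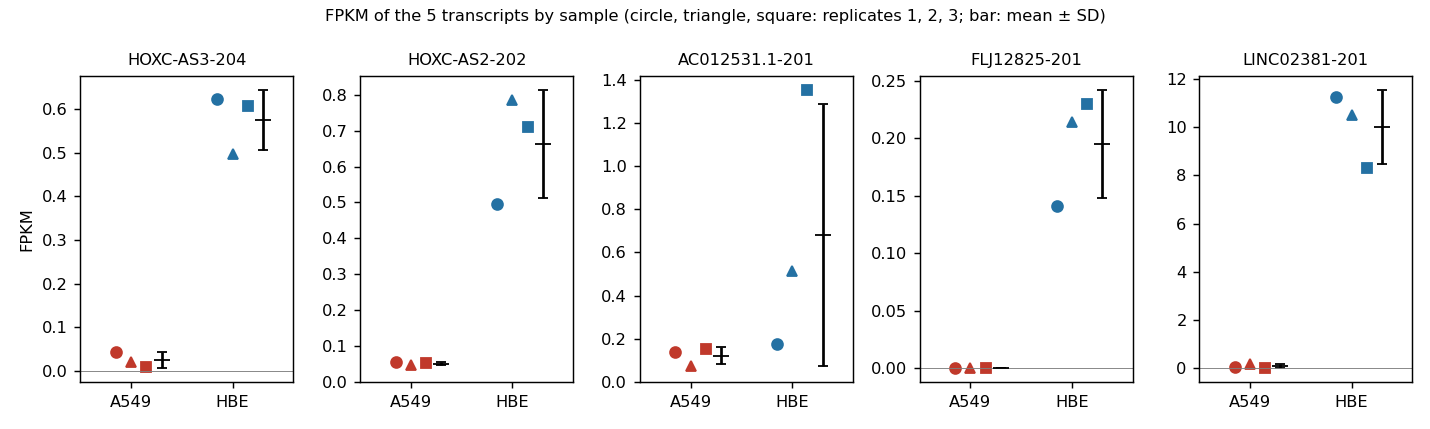
FPKM of each of the 5 transcripts in each sample, on a separate linear axis per transcript, with A549 in red, HBE in blue and a bar for the mean ± SD of 3 samples. The lines do not overlap in any panel, and they come closest for AC012531.1-201, at 0.151 FPKM in the highest A549 sample and 0.176 FPKM in the lowest HBE sample.

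HOXC-AS3-204, which lies between HOXC11 and HOXC10 on the opposite strand, was near the detection limit in A549. It had 8, 4 and 2 counts in A549 replicates 1, 2 and 3, against 99, 73 and 85 counts in the HBE replicates. The HBE samples were alike, with the highest 1.25 times the lowest after scaling by library size, while the A549 samples ranged over 4.12-fold on few counts. Its level was 0.0250 ± 0.0179 FPKM in A549 and 0.575 ± 0.0687 FPKM in HBE (SD, n = 3 each). That is 19.1-fold lower in A549, with log2 fold change -4.26, standard error (SE) 0.81 and adjusted p 5.44e-05 by edgeR's quasi-likelihood test. Without A549 replicate 1, its highest A549 sample, the log2 fold change was -4.88. Scaling by DESeq2 size factors gave -2.90 and by column totals -2.81. HOXC-AS3-201, HOXC-AS3-202 and HOXC-AS3-203 were not analysed here.

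HOXC-AS2-202, antisense in the stretch of HOXC6 and HOXC9, had 7, 6 and 7 counts in A549 and 59, 86 and 74 counts in HBE. Its A549 samples were the most even of the 4 transcripts with counts there, at 0.0545, 0.0475 and 0.0519 FPKM, against 0.496, 0.786 and 0.710 FPKM in HBE. The mean was 0.0513 ± 0.00351 FPKM in A549 and 0.664 ± 0.151 FPKM in HBE (SD, n = 3 each). It was 11.7-fold lower in A549, with log2 fold change -3.54 (SE 0.78) and adjusted p 0.00013 by edgeR's quasi-likelihood test. Scaled to the column totals of the table, the adjusted p of the edgeR test was 0.0896 and the log2 fold change -2.22, and with DESeq2 size factors the log2 fold change was -2.15. The 20 counts of HOXC-AS2-202 in A549 were 8.43% of its HBE level in CPM, and the 14 counts of HOXC-AS3-204 were 5.11%.

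AC012531.1-201, an intergenic-type lncRNA by its GENCODE class, differed least between the lines and most within HBE. It had 21, 12 and 24 counts in A549 and 27, 72 and 180 counts in HBE. HBE replicate 1, at 0.176 FPKM, was close to the A549 samples at 0.137, 0.0756 and 0.151 FPKM, whereas HBE replicate 3 stood at 1.36 FPKM. The level was 0.121 ± 0.0400 FPKM in A549 and 0.681 ± 0.607 FPKM in HBE (SD, n = 3 each). The difference was 5.43-fold lower in A549, with log2 fold change -2.44 (SE 0.75) and adjusted p 0.00308 by edgeR's quasi-likelihood test. HBE replicate 3 decided this call: without it the log2 fold change was -1.47 and the adjusted p of the edgeR test 0.0866. The call was also lost with DESeq2 size factors, with column totals and with limma-voom, where the adjusted p was 0.203, 0.191 and 0.0789.

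FLJ12825-201 had no count in any A549 sample, which was so for 27.7% of the table. In HBE it had 32, 44 and 45 counts, or 0.141, 0.214 and 0.230 FPKM, so even there it was scarce. Its mean in HBE was 0.195 ± 0.0473 FPKM (SD, n = 3), and it was listed at 0 in A549. Against 3 counts over the A549 samples, the upper limit that a count of 0 allows, it was at least 43.3-fold lower in A549, with an adjusted p of 1.51e-05 by edgeR's quasi-likelihood test. Without A549 replicate 3 the limit rests on fewer reads and the bound was 28.5-fold. Such bounds cover counting error only.

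LINC02381-201 showed the largest fold of the 4 transcripts with counts in both lines and was the only one of the 5 at more than 2 FPKM in any sample. It had 5, 13 and 2 counts in A549, against 865, 747 and 561 counts in HBE. The counts were high in every HBE sample, and the A549 counts were as few as those of the antisense transcripts. In FPKM these were 0.0525, 0.163 and 0.0252 in A549 and 11.2, 10.5 and 8.29 in HBE, with means of 0.0803 ± 0.0732 and 10.0 ± 1.53 FPKM (SD, n = 3 each). It was 113-fold lower in A549, with log2 fold change -6.82 (SE 0.71) and adjusted p 1.16e-08 by edgeR's quasi-likelihood test. A549 replicate 2 held 13 of the 20 A549 counts, and without it the log2 fold change was -7.74. With DESeq2 size factors it was -5.43 and with column totals -5.16. LINC02381-202 was not analysed here.

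In the authors' deposited table the log2 fold change of A549 over HBE was -4.14 for HOXC-AS3-204, -3.39 for HOXC-AS2-202 and -2.13 for AC012531.1-201. For FLJ12825-201 the authors' deposited table gives -8.36, a value set against no counts, and for LINC02381-201 it gives -6.66. Each of the 4 values for transcripts with counts in both lines was nearer 0 than the edgeR value above. Over the 628 transcripts with counts in both lines, the median of the edgeR value minus that in the authors' deposited table was -0.15.

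The order of the transcripts by level per length differed between the lines. In A549 the order by mean FPKM was AC012531.1-201, LINC02381-201, HOXC-AS2-202, HOXC-AS3-204 and FLJ12825-201. The sample range of LINC02381-201 overlapped there with those of AC012531.1-201, HOXC-AS2-202 and HOXC-AS3-204. HOXC-AS2-202 and HOXC-AS3-204 did not overlap the next transcript below them. In HBE the order was LINC02381-201, AC012531.1-201, HOXC-AS2-202, HOXC-AS3-204 and FLJ12825-201. LINC02381-201 stood clear at the top, and the ranges of AC012531.1-201, HOXC-AS2-202 and HOXC-AS3-204 overlapped. FLJ12825-201 lay below HOXC-AS2-202 and HOXC-AS3-204 without overlap, but AC012531.1-201 in HBE replicate 1, at 0.176 FPKM, was within its range. Among the 688 transcripts of the table with Ensembl identifiers, LINC02381-201 ranked 382 by mean FPKM in A549 and 10 in HBE. The other ranks ran from 334 to 528 in A549, the last being that of a transcript at 0, and from 195 to 364 in HBE.

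The counts of the 5 transcripts summed to 41, 35 and 35 in the A549 samples and to 1082, 1022 and 945 in the HBE samples. Shares of these sums are not corrected for length, so each transcript is compared only with itself in other samples. LINC02381-201 made up 12.2%, 37.1% and 5.71% of the sum in A549, with Wilson 95% intervals of 5.3% to 25.5%, 23.2% to 53.7% and 1.6% to 18.6%. In HBE it made up 79.9% (77.5% to 82.2%), 73.1% (70.3% to 75.7%) and 59.4% (56.2% to 62.5%). The share was higher in every HBE sample than in every A549 sample, and no interval of A549 overlapped any of HBE. The share of AC012531.1-201 was 51.2%, 34.3% and 68.6% in A549, and 2.50%, 7.05% and 19.1% in HBE. These intervals cover counting error only.

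**Figure D3:**
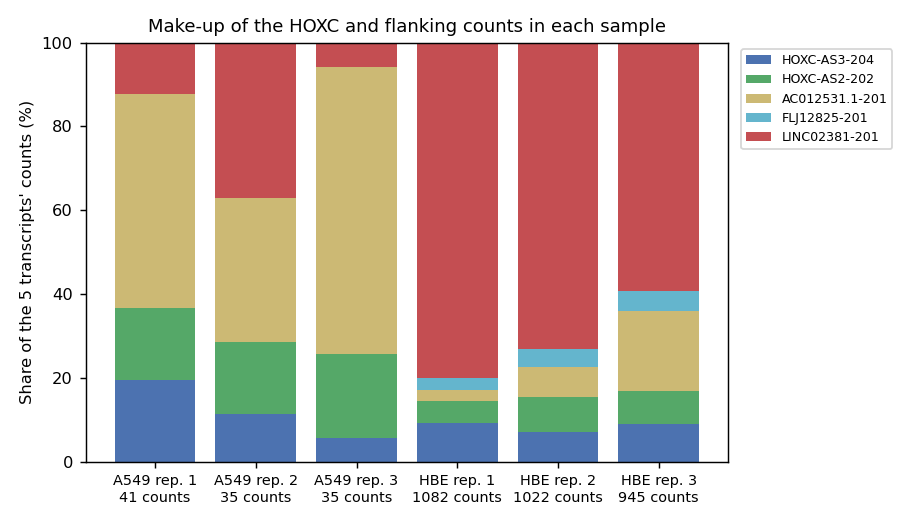
Stacked bars of the percentage of the 5 transcripts' summed counts held by each transcript, with A549 samples on the left, HBE samples on the right and the sum under each bar. LINC02381-201 (red) holds 5.71% to 37.1% in A549 and 59.4% to 79.9% in HBE.

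The ratio of LINC02381-201 to each of 3 other transcripts, a measure that no scaling of the libraries changes, is given by sample. Over HOXC-AS3-204 the ratio of counts was 0.625, 3.25 and 1 in A549, against 8.74, 10.2 and 6.6 in HBE. Over HOXC-AS2-202 it was 0.714, 2.17 and 0.286 in A549, against 14.7, 8.69 and 7.58 in HBE. The lines did not overlap in either. Over AC012531.1-201 the ratio was 0.238, 1.08 and 0.0833 in A549, against 32.04, 10.4 and 3.12 in HBE, again with no overlap and with a wide spread in HBE. The p of an exact permutation test, two-sided, was 0.1 for each of the 3 ratios and 0.1 after adjustment over them, which is the smallest that 3 samples against 3 allow, so the design cannot call them. FLJ12825-201 had no A549 count to form a ratio.

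RefSeq promoter sequences (GRCh38.p14, windows of 300 bases that reach past the start) were given for 2 of the 5 genes, FLJ12825 and LINC02381, the flanking genes. They are shown whole so that the 2 starts can be compared, with matches to 4 motifs in capitals. Searched on both strands were the TATA box TATAAA, the GC box GGGCGG, the CCAAT box CCAAT and the core TAATTA that many homeodomains bind, and no matches overlapped.
FLJ12825 (chr12:54058004-54058303): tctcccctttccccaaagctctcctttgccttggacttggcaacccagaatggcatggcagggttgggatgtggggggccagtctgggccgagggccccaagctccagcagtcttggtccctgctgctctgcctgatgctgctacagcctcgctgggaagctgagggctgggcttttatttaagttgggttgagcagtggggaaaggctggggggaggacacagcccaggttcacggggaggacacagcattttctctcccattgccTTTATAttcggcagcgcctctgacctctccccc
LINC02381 (chr12:54125821-54126120): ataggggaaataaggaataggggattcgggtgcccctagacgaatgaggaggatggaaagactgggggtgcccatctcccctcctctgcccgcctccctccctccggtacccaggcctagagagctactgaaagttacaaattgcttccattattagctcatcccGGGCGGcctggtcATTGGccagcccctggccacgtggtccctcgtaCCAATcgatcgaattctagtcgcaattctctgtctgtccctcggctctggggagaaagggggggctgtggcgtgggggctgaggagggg

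The promoter of LINC02381 holds 1 GC box at -85 and 2 CCAAT boxes, at -72 on the reverse strand and at -39. Positions are counted from the RefSeq start as position 0 to the first base of the match. This window also holds the GENCODE start of FAM242C on the other strand (chr12:54125992), so its matches cannot be assigned to LINC02381 alone. GGGCGG is in 45.0% and CCAAT in 34.6% of the 35116 human promoters of this length. In the promoter of FLJ12825 the only match is TATAAA on the reverse strand, downstream of the start at 17, a motif found in 11.5% of promoters. TAATTA, in 4.8% of promoters, is in neither window. The GC content is 60.0% for FLJ12825 and 59.3% for LINC02381. CG dinucleotides number 5 in FLJ12825 and 13 in LINC02381, and the median promoter has 14. The observed over expected CG ratio is 0.19 in FLJ12825 and 0.49 in LINC02381, against a median of 0.58. These matches describe the letters of the windows only.

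lncRNAs of the other HOX clusters in the table were lower in A549 as well. Of the list of HOX cluster genes and antisense RNAs, 4 further genes had rows, with 6 transcripts. All 6 passed as lower in A549 by edgeR's quasi-likelihood test, as 52.3% of the table did. Of the 6, 5 had no A549 count, which was so for 27.7% of the table. With DESeq2 size factors all 6 were still lower and 5 passed, HOXA-AS2-202 being the exception (adjusted p 0.163 in edgeR, and 0.348 with column totals). By limma on log2(FPKM + 1), 4 of the 6 passed, without HAGLR-202 and HAGLR-213. HOXA10-AS-202, antisense in the HOXA cluster on chromosome 7, was listed at 0 in A549 and had 158, 88 and 80 counts in HBE, and was at least 117-fold lower in A549. HOXA10-AS-203 had 62, 51 and 67 counts in HBE and HOXA11-AS-205 had 22, 68 and 77, and they were at least 64.4-fold and 59.8-fold lower in A549. HAGLR, antisense in the HOXD cluster on chromosome 2, gave HAGLR-202 with 9, 45 and 178 counts and HAGLR-213 with 28, 7 and 33 counts in HBE, bounds of 83.1-fold and 24.3-fold lower in A549. HBE replicate 3 decided the size of the HAGLR-202 bound, which was 28.2-fold without it. Without A549 replicate 3, where the limit rests on fewer reads, the bounds were 76.9-fold for HOXA10-AS-202, 42.5-fold for HOXA10-AS-203, 39.4-fold for HOXA11-AS-205, 54.7-fold for HAGLR-202 and 16.04-fold for HAGLR-213. HOXA-AS2-202 was the one with counts in A549, 24, 28 and 32, against 60, 188 and 143 in HBE. It was 5.08-fold lower in A549, with log2 fold change -2.34 (SE 0.65) and adjusted p 0.00142 by edgeR's quasi-likelihood test. Of the 5 transcripts of the HOXC locus, 1 had no A549 count, and the others had 14 to 57 counts over the line. That 1 of 5 is near the 27.7% of the table, and 5 transcripts are too few to show whether the HOXC locus differs from it.

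**Figure D4:**
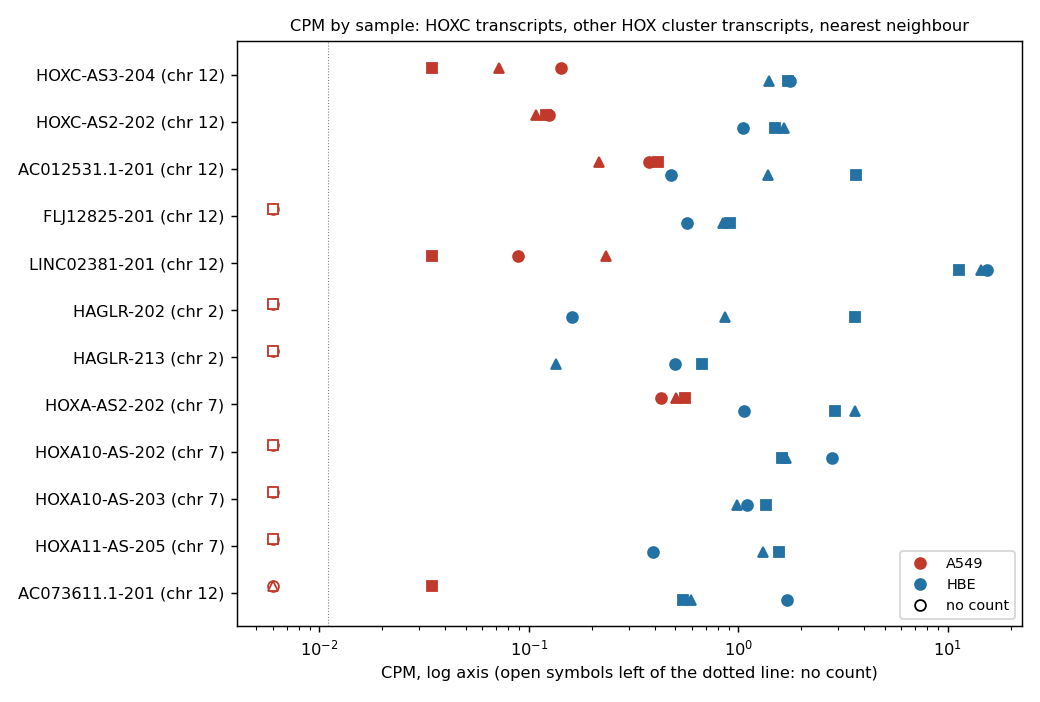
CPM in each sample on a log axis for the 5 HOXC and flanking transcripts, the 6 other HOX cluster transcripts and AC073611.1-201, with A549 in red above HBE in blue. Open symbols left of the dotted line mark samples with no count and lie on top of each other, and no A549 sample reaches the lowest HBE sample of its transcript.

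Within HBE the transcripts of the HOX loci did not follow a single sample. Replicate 3 held 66.1% of the summed HBE level of AC012531.1-201 and 77.8% of that of HAGLR-202, and replicate 1 held 8.71% and 3.46%. LINC02381-201 ran the other way, with 37.4% in replicate 1 and 27.6% in replicate 3. The share of replicate 1 was 45.9% for HOXA10-AS-202 and 14.1% for HOXA-AS2-202. HOXC-AS3-204 was the most even of these transcripts, with each sample between 28.8% and 36.01%. The cause of this spread was not tested.

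**Figure D5:**
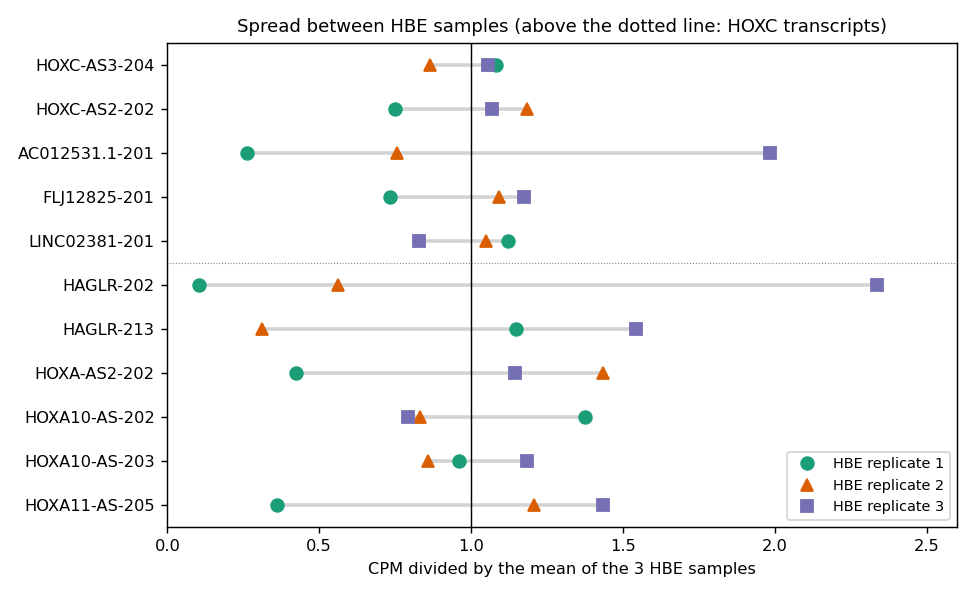
Level in each HBE sample divided by the mean of the 3 HBE samples, in CPM, for the 5 HOXC and flanking transcripts above the dotted line and the 6 other HOX cluster transcripts below it. Replicate 3 lies at 1.98 for AC012531.1-201 and 2.33 for HAGLR-202, and at 0.828 for LINC02381-201.

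Elsewhere on chromosome 12, transcripts of the table were more often higher than lower in A549. Of the 45 other annotated transcripts on the chromosome, 16 passed as lower and 29 as higher in A549, and their median log2 fold change was 2.87. Over the 1437 transcripts of the table, 52.3% passed as lower, 47.7% of calls were higher in A549 and the median was -2.00. That background also holds transcripts without Ensembl identifiers, so the sets are not alike. One lay within 1 Mb of the HOXC span, AC073611.1-201 at 0.68 Mb, with 0, 0 and 2 counts in A549 and 96, 31 and 27 in HBE. It was lower in A549, with 82.7 times the level in HBE by summed counts scaled to library size. The exact 95% interval of that ratio, 22.5 to 689, covers counting error only. The edgeR fit gave 67.9-fold lower in A549, with an adjusted p of 4.8e-05 by its quasi-likelihood test. Without HBE replicate 1 the level in HBE was 48.4 times that in A549, and without A549 replicate 3, which held both of its A549 counts, it was at least 36.3-fold lower in A549. The next on either side were higher in A549. AGAP2-AS1-201, 3.59 Mb away, differed by 1.71 on the log2 scale (SE 0.51), and AC125611.4-201, 4.66 Mb away, by 1.67 (SE 0.67). The adjusted p of the edgeR test for AC125611.4-201 was 0.0188, but 0.0562 without A549 replicate 3 and 0.0705 without HBE replicate 1. AC121338.2-201, 6.07 Mb away, was lower in A549, at -2.23 (SE 0.70) with an adjusted p of 0.00363 by the edgeR test. With only 1 other transcript within 1 Mb, the table cannot show how far the lower levels reach. Coding genes of the HOXC cluster and SMUG1 were not analysed here.

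For the 3 transcripts with the highest mean CPM, which is not corrected for length, the most similar patterns were sought by the root mean square difference of log2(CPM + 0.1) over the 6 samples, among transcripts with a symbol. Nearest to LINC02381-201 were AC004846.1-201 on chromosome 14 at 0.928, GAS6-DT-201 on chromosome 13 at 1.02 and AC100803.2-201 on chromosome 8 at 1.20. AC004846.1-201 was listed at 0 in A549 and had 463, 537 and 462 counts in HBE. Nearest to AC012531.1-201 were ITGB2-AS1-202 at 0.54, HCG18-239 at 0.57 and FAM225A-201 at 0.572. HOXC-AS2-202 was second nearest to HOXC-AS3-204, at 0.441, after SAPCD1-AS1-202 at 0.354 and before AC144831.1-201 at 0.463. SAPCD1-AS1-202 had 5, 5 and 6 counts in A549 and 126, 91 and 73 in HBE. These distances describe the table, in which 52.3% of the transcripts passed as lower in A549.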

How the data were processed

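RNA of 3 A549 and 3 HBE samples was analysed from a single table. The submitters' processing notes name HISAT2, StringTie, DESeq2 and GRCh38 with no version. For each transcript the authors deposited estimated counts and FPKM values by sample, with their log2 fold change and p-value. No p-value of the authors' deposited table exceeded 0.00997 and no log2 fold change was nearer 0 than 1.25, so the table is a selection. The 5 genes and the other lists were chosen with earlier results of these data known.

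Library sizes were solved from FPKM, length and the deposited counts, which the product then matched to within 1 count for 100% of values. The table held 0.459% to 1.06% of the A549 libraries and 0.991% to 2.48% of the HBE libraries. All 1437 transcripts were fitted with edgeR 4.0.16 in R 4.3.3 (quasi-likelihood, Benjamini-Hochberg at 0.05), scaled by these sizes, with no low-count filter and no block. The SE of a log2 fold change is its size over the square root of F. The code was tested on simulated data. Alternatives were DESeq2 1.42.0 size factors and its Wald test, TMM, column totals, limma 3.58.1, low-count filters, a replicate block and leaving out each sample. Named were all transcripts of the 5 genes and of the HOX list, annotated transcripts within 1 Mb, and the 3 nearest patterns of the 3 transcripts most abundant by CPM, a basis under which HOXC-AS3-204 precedes HOXC-AS2-202, unlike by FPKM. The next neighbours beyond 1 Mb, and the values without 1 sample for some neighbours and for the other HOX transcripts, were added after the data were seen. Positions are from GENCODE release 29, promoters from RefSeq (GRCh38.p14), and copies of at least 50 bases were sought with BLAST+ 2.17.0. Python 3.11.15, SciPy 1.17.1 and matplotlib 3.10.9 were used.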

Additional observations from a re-analysis of the deposited data

How the results depend on the processing

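All 5 transcripts stayed lower in A549 under each alternative that gave a value. Over the 16 alternatives, the log2 fold change ran from -7.74 to -3.34 for LINC02381-201 and from -4.88 to -0.62 for HOXC-AS3-204. It ran from -3.71 to -0.66 for HOXC-AS2-202 and from -2.90 to -0.52 for AC012531.1-201. The smallest sizes were on the log2(FPKM + 1) scale. The added 1 exceeds the mean FPKM of each transcript in both lines, except LINC02381-201 in HBE, so sizes on that scale are compressed. The adjusted p stayed under 0.05 throughout for LINC02381-201, HOXC-AS3-204 and FLJ12825-201. AC012531.1-201 lost its call with DESeq2 size factors (-0.96), column totals (-1.53), the DESeq2 Wald test (-0.96), limma-voom (-1.99) and limma on log2(FPKM + 1) (-0.52). Its adjusted p ranged from 0.000102 to 0.214. HOXC-AS2-202 lost its call with column totals (-2.22), where 3 of the 5 passed. A single RNA, RPPH1, made up 50.1% to 56.1% of the column totals in A549 and 75.5% to 88.1% in HBE. The cause of the lost calls was not tested. DESeq2 size factors moved the median log2 fold change of all transcripts by 0.86, TMM by 0.28, column totals by 1.10 and the DESeq2 Wald test by 1.40. A filter of at least 10 counts in 3 samples left 941 calls of 943, and one on the mean, of 10 counts, left 913 of 915, fewer since fewer were tested.

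Leaving out 1 sample gave -2.90 to -1.47 for AC012531.1-201 and 1408 to 1431 calls in the table. In the replicate block fit, 5 of the 5 and 1342 of all transcripts passed. Samples of the same number did not deviate together (r 0.0109, -0.00838 and -0.0495), which gives no sign of pairing. With 3 samples per line and a selected table, this cannot show that the samples were unpaired. Few counts limit the A549 levels, at 0 for FLJ12825-201 and 14 to 57 for the other transcripts over the line.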
